A study of Mus musculus with 6 samples.

Results

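Genes for 10 subunits of the SWI/SNF chromatin remodeling complex were followed in open chromatin maps of mouse β-cells. The rule names them by symbol and uses no measured value, out of 21887 protein-coding genes: Smarca2, Smarca4, Smarcc1, Smarcc2, Smarcb1, Smarcd1, Smarcd3, Arid1a, Arid1b and Dpf1. All 10 were found in RefSeq's gene annotation of GRCm38.p6 (mm10). A gene's territory is its RefSeq span plus 10 kb on each side.

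The study mapped open chromatin by ATAC-seq, which uses Tn5 transposase to cut and tag exposed DNA, in sorted Tomato-positive β-cells of dispersed islets. There were 3 libraries with the genotype label Chd4KO, called Chd4Db in the design text, and 3 labelled Control. Both groups received tamoxifen. Between 27000 and 80000 cells were collected, and 14000 to 45000 nuclei entered the reaction. Chd4 encodes the helicase of NuRD, another ATP-dependent remodeling complex. The peaks do not show its deletion and give no check of genotype. How Chd4 was deleted, ages and the number of animals per library are not named in the sources used here, so p-values measure the spread between these libraries, which may be technical.

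SWI/SNF complexes use the energy of ATP hydrolysis to slide or evict nucleosomes and so open DNA to transcription factors. Each complex holds a single catalytic ATPase, a core of scaffold subunits, and subunits such as the ARID proteins that set which variant of the complex is formed. In β-cells the transcription factor Pdx1 is known to recruit the complex.

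Each library has its own deposited peak list, with no read counts, so depth in reads is unknown. The knockout lists held 119088 to 124125 peaks and the control lists 100109 to 110693. Peaks covered 65.8 to 69.1 Mb in the knockout and 58.0 to 63.8 Mb in the control. Markers without a listed RefSeq start could not be scored. This left 7 of 10 for β-cells, 4 of 7 for α- and δ-cells and 20 of 29 for other cells. A peak lay over the start of 6 to 7 of 7 β-cell markers in the knockout and 7 of 7 in the control. For α- and δ-cell markers it was 2 to 3 of 4 in both groups. For acinar, duct, endothelial, blood, mesenchymal and nerve cells it was 5 of 20 in the knockout and 4 to 5 in the control. Of these, 3 in the knockout and 2 to 3 in the control were nerve cell markers. None of the 5 acinar markers had a peak over its start in any library. Summed covered length, in bases under peaks, was 2122 to 3262 bp in the knockout, against 1091 to 1496 bp in the control for the acinar markers. Endothelial markers (9579 to 10602 bp in the knockout, against 9197 to 9438 bp in the control) and mesenchymal markers (10689 to 12145 bp, against 10184 to 10461 bp) were likewise higher in every knockout library. With this scaling the markers of all 3 endocrine types were lower in every knockout library. The 10 β-cell markers had 38253 to 39329 bp in the knockout, against 42801 to 48203 bp in the control, the 5 α-cell markers 7040 to 7154 bp, against 8732 to 9452 bp, and the 2 δ-cell markers 2320 to 2399 bp, against 3206 to 3732 bp. For duct, blood and nerve cell markers the groups overlapped. Scaling multiplied knockout values by 0.9217 to 0.9682 and control values by 0.9987 to 1.0987. Which groups overlap depends on the scaling. With it undone, the groups overlapped for β-cell markers too, and nerve cell markers were higher in every knockout library. The other types kept the order given. The part of these differences in the values below was not tested, and in bulk samples a change in the mix of cells and a change per cell cannot be told apart.

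All 10 genes carried an open region over every RefSeq start listed for them, 11 starts in all with both starts of Arid1a, and every one of these regions was called in all 6 libraries. The start windows, 250 bases before to 50 after the start, were rich in CpG, with a median observed-to-expected CpG ratio of 0.95 (range 0.79 to 1.05) against 0.38 over all 32851 RefSeq windows of this length. Their median GC content was 72.3%, against 52.7%. The letters GGGCGG of the GC box, searched on both strands, stood in 11 of 11 windows, against 35.7% of all windows. GCGCATGC, part of the NRF1 motif, stood in 3 of 11 (2.71% of all), the ETS core CCGGAAG in 2 of 11 (8.86%), CCAAT in 1 of 11 (37.4%), TGACG in 3 of 11 (20.8%), AAGATGG in 1 of 11 (6.34%), and TGACGTCA and TATAAA in 0 of 11 (1.79% and 13.6%). TGACG also counts within TGACGTCA.

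The 250 bases before the start are shown for the ATPase gene Smarca4, for the scaffold genes Smarcc1 and Smarcc2, whose covered length rose, and for Dpf1, whose covered length fell. They come from RefSeq on GRCm38.p6, plus strand, at chr9:21615919-21616168, chr9:110131774-110132023, chr10:128458986-128459235 and chr7:29303755-29304004. Capitals mark the motifs named above, on either strand.
Smarca4: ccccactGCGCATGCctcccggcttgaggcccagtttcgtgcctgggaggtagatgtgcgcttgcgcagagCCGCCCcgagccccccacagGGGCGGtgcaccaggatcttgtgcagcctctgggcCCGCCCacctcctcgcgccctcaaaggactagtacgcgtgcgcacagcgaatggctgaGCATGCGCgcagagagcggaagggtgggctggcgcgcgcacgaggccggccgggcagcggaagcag
Smarcc1: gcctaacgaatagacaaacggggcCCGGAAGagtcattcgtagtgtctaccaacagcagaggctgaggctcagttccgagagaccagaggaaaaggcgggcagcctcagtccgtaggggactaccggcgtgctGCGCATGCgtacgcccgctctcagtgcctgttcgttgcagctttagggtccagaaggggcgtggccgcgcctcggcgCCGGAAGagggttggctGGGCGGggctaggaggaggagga
Smarcc2: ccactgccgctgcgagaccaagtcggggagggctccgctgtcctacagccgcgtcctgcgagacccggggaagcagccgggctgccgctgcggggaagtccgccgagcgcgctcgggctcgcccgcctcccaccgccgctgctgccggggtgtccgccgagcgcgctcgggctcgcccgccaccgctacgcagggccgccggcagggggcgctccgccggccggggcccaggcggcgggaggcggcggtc
Dpf1: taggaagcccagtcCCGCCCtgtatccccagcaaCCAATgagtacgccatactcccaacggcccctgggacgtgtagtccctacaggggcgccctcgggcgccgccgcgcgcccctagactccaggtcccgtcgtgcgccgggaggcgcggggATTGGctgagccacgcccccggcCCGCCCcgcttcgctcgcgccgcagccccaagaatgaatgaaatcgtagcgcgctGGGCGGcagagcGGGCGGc

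Smarca4 holds GCGCATGC at 243 bases before the start and, on the minus strand, at 66, and Smarcc1 holds it once, 117 bases before. Smarcc2 has none of the motifs upstream and a GC box 26 bases into the transcript. Dpf1 is the window with CCAAT, at 216 bases before the start on the plus strand and at 97 on the minus strand, and it holds 4 GC boxes. These are matches of letters, not measured binding sites.

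Covered length, the bases under peaks in a territory, rose at both scaffold genes, Smarcc1 and Smarcc2, and fell at Arid1b and Dpf1 in the knockout, where the falls, but not the rises, passed the test only with the scaling described next. Values were scaled so that every library had the same total covered length, and tested with limma over all 17711 genes with enough covered length, with Benjamini-Hochberg adjustment. Of the 10 genes 2 were higher and 2 lower at adjusted p under 0.05, where 7.57% of all genes tested were higher and 14.6% lower. The median log2 fold change of the 10 genes was -0.09, and that of all genes tested was -0.09 as well. Without scaling the median of all genes was 0.06, with 2586 genes higher and 510 lower, against 1340 higher and 2577 lower with it. Of the 10 genes 2 were then higher and 0 lower by limma, with 4 higher and 1 lower at an unadjusted p under 0.05. The knockout libraries all lay above the control libraries at 2 genes (13.1% of all genes) and all below them at 3 (32.7%).

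**Figure D1:**
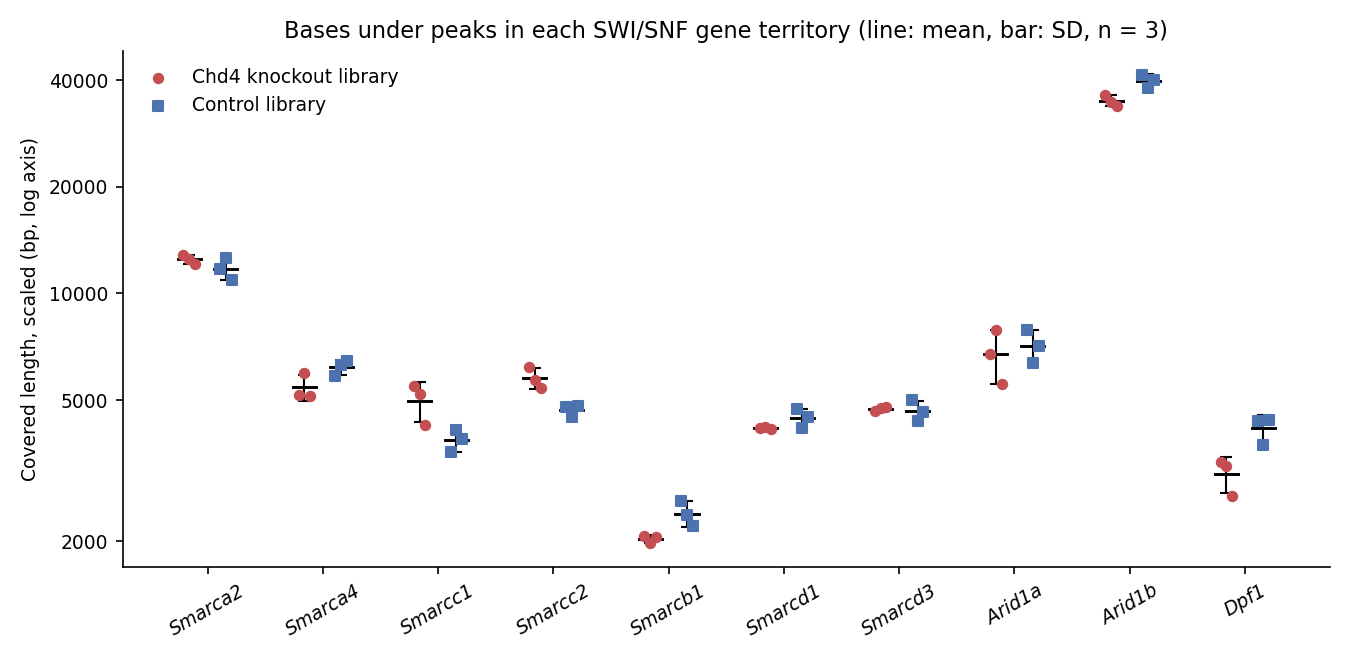
Scaled covered length in bp (log axis) of each gene territory in each library, knockout left of control, with mean and SD (n = 3). Smarcc1 and Smarcc2 lie higher in all knockout libraries, and Smarcb1, Arid1b and Dpf1 lower, of which only Dpf1 does so without scaling too.

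Of the ATPase genes, neither passed the test. Smarca2 (chromosome 19, 26605073 to 26778321) encodes one of the alternative motors of the complex. It had 12871, 12510 and 12104 bp of covered length in knockout libraries 1 to 3 and 11735, 12609 and 10898 bp in control libraries 1 to 3. The groups overlapped, with 1 control library inside the knockout range (log2 fold change 0.09 ± 0.07 SE, limma adjusted p = 0.35; here and below 300 bp were added to covered length before log2).

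Smarca4 (chromosome 9, 21616106 to 21704230) encodes the other motor. It had 5179, 5957 and 5145 bp in the knockout, against 5837, 6279 and 6432 bp in the control. One knockout library reached into the control range (-0.18 ± 0.07, limma adjusted p = 0.11). Without scaling the value was -0.02.

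Both genes of the paired scaffold proteins around which the core assembles rose. Smarcc1 (chromosome 9, 110132024 to 110240178) had 5483, 5211 and 4257 bp in the knockout, against 3561, 4124 and 3894 bp in the control. All knockout libraries lay above all control libraries (0.34 ± 0.10, limma adjusted p = 0.045). Smarcc2 (chromosome 10, 128459182 to 128490591) had 6189, 5700 and 5418 bp in the knockout, against 4794, 4479 and 4816 bp in the control, the knockout again being higher throughout (0.28 ± 0.07, limma adjusted p = 0.026).

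Both scaffold genes also passed without scaling (0.50 and 0.44, limma adjusted p = 0.043 and 0.0095). The territories include open regions over neighboring genes, Cspg5 next to Smarcc1, and Myl6 and Myl6b next to Smarcc2. With peaks over other genes' spans left out, a setting chosen after the data were seen, the fold changes were 0.67 and 0.64 (limma adjusted p = 0.035 and 0.011). The calls did not survive most losses of a library. Smarcc1 had limma adjusted p = 0.11 without knockout library 2 or control library 3, 0.13 without knockout library 1 or control library 1, and 0.068 without control library 2. Smarcc2 had 0.088, 0.059, 0.059, 0.060 and 0.068 without knockout library 1 or 2 or control library 1, 2 or 3. Without knockout library 3 both passed (limma adjusted p = 0.014 and 0.025). With the 50000 strongest peaks of each library Smarcc1 turned to -0.35 and Smarcc2 to 0.03. With 1 kb flanks Smarcc1 had 0.52 and Smarcc2 0.42 (limma adjusted p = 0.064 and 0.013), and with 50 kb flanks 0.19 and 0.06 (0.098 and 0.47).

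The other 3 core genes did not pass. Smarcb1 (chromosome 10, 75896769 to 75921614), a tumor suppressor gene whose product contacts the nucleosome, had 2070, 1972 and 2052 bp in the knockout, against 2602, 2369 and 2199 bp in the control. The knockout libraries lay below every control library (-0.20 ± 0.07, limma adjusted p = 0.076), but without scaling the groups overlapped (-0.05). Smarcd1 and Smarcd3 encode alternative forms of a subunit that links the complex to transcription factors, Smarcd3 the form known from heart and muscle. Smarcd1 (chromosome 15, 99702287 to 99713995) had 4170, 4206 and 4130 bp in the knockout, against 4706, 4162 and 4482 bp in the control (-0.09 ± 0.06, limma adjusted p = 0.33). Its knockout values were close to each other and overlapped the control range. Smarcd3 (chromosome 5, 24592622 to 24624456) had 4669, 4743 and 4771 bp in the knockout, against 4987, 4370 and 4617 bp in the control, so the knockout values lay inside the control range (0.02 ± 0.06, limma adjusted p = 0.82). Without scaling every knockout library of Smarcd3 lay above every control library, and the difference did not pass (0.18 ± 0.05, limma adjusted p = 0.055).

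The ARID genes encode the alternative large DNA-binding subunits of the canonical BAF complex, and the longer gene fell while the other did not pass. Arid1a (chromosome 4, 133679008 to 133756769) had 6758, 7897 and 5544 bp in the knockout, against 7894, 6350 and 7097 bp in the control. The knockout libraries spread wider than the groups differed (-0.08 ± 0.13, limma adjusted p = 0.65). Arid1b (chromosome 17, 4994297 to 5347656) had 36309, 34788 and 33872 bp in the knockout, against 41451, 38133 and 40179 bp in the control, all knockout libraries below all control ones (-0.19 ± 0.06, limma adjusted p = 0.047). Without scaling Arid1b had -0.02 (limma adjusted p = 0.87) and the groups overlapped, and with any 1 library left out its limma adjusted p was 0.052 to 0.14. With the 50000 strongest peaks its value was 0.16.

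Dpf1 encodes a subunit with PHD fingers that is found in the neuronal form of the complex. At 3093.5 ± 360.1 bp in the knockout, against 4162.8 ± 376.5 bp in the control (SD, n = 3 each), it had the lowest log2 fold change of the 10 genes. Dpf1 (chromosome 7, 29303952 to 29317592) had 3351, 3247 and 2682 bp in the knockout, against 4377, 3728 and 4383 bp in the control. All knockout libraries were below all control libraries, also without scaling (-0.40 ± 0.10, limma adjusted p = 0.028). Without scaling Dpf1 had -0.24 (limma adjusted p = 0.14). It did not pass without control library 1 (limma adjusted p = 0.080) or control library 3 (0.093), and with the 50000 strongest peaks it had -0.03.

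Per kb of territory, the knockout and control means were 131 and 140 bp at Smarcd1, the most densely covered territory. At Smarcc1, the least densely covered, they were 38.9 and 30.1 bp. The span of Smarcd1 is 11.709 kb, so most of its territory is flank. Of the 9 regions there, 6 lay in the flanks and 5 over Asic1 or Gpd1. Arid1b, with the longest span of the 10 at 353.36 kb, had 93.7 and 107 bp per kb. At Smarcc2 the means were 112 and 91.3 bp, at Dpf1 92.0 and 124 bp, and at Smarcd3 91.2 and 89.9 bp. Arid1a had 68.9 and 72.8 bp, Smarca2 64.7 and 60.8 bp, Smarca4 50.2 and 57.2 bp, and Smarcb1 45.3 and 53.3 bp. Smarcd1 led and Smarcc1 closed the order in both groups.

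Overlapping peaks of the 6 lists were joined into regions, with at least 1 bp in common. Regions called in all 3 knockout libraries and no control library are termed gained, the reverse lost, and those called in all 6 shared. The 10 territories held 199 regions, of which 16 were gained, 4 lost and 95 shared. That is 8.04% gained, 2.01% lost and 47.7% shared, where 8.93%, 2.83% and 50.2% of the 108991 regions in any gene territory were gained, lost and shared. The shares at SWI/SNF genes were thus near those of all territories. The remaining 84 regions had other patterns, 27 of them called in a single library.

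Of the 16 gained regions 13 lay within a gene span and 3 in the flanks, and the nearest had its center 3265 bp from the start. Gained regions were 279 to 649 bp wide as merged (median 484.5 bp), against a median of 832 bp for the shared regions. A gained region joins peaks of 3 lists and a shared one peaks of 6, so these widths are not like for like.

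**Figure D2:**
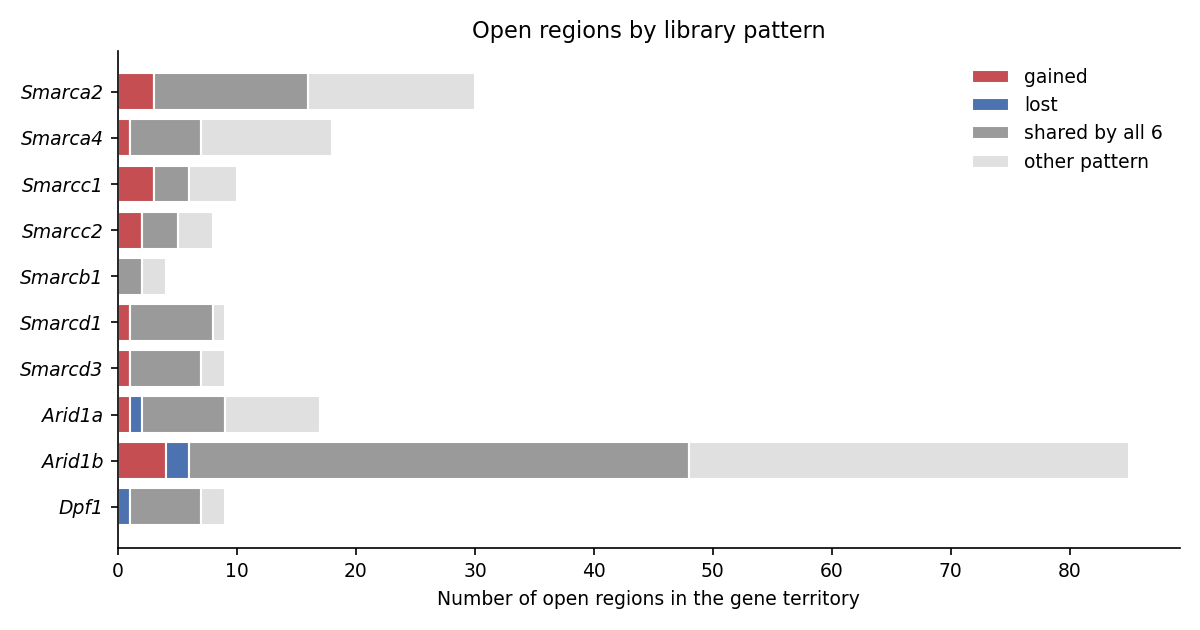
Number of open regions per gene territory by pattern. Arid1b holds 85 of the 199 regions, and Smarcc1 and Smarcc2 hold 5 of the 16 gained regions on 18 regions in all.

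Among ATPase genes, Smarca2 had 3 gained regions of 30 and Smarca4 1 of 18, and neither had a lost one. The gained region of Smarca4 (chromosome 9, 21626536 to 21627047), 10.62 kb into the gene, was covered over 409, 510 and 432 bp in the knockout. The authors' fold enrichment at its summit was 12.9, 13.1 and 12.0. The gained regions of Smarca2 were more modest, with folds of 8.20, 9.43 and 3.89 in the region 102.82 kb from the start (chromosome 19, 26707817 to 26708148), 6.01, 6.41 and 4.17 at 125.47 kb, and 5.52, 3.83 and 3.27 at 164.52 kb. In each of these Smarca2 regions knockout library 3 had the lowest fold. These folds and those below are the authors' own, describe a peak within its list, and were not tested between lists.

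Smarcc1 had 3 gained regions of 10 and Smarcc2 2 of 8. Gained regions count toward covered length, so these counts do not stand apart from its rise at both genes. At Smarcc1 one lay upstream, at -7.63 kb from the start (chromosome 9, 110124154 to 110124641, 312, 488 and 297 bp in the knockout). The other two lay within the gene at 16.25 kb (110147973 to 110148573, 437, 601 and 460 bp) and 20.51 kb (110152263 to 110152803, 406, 478 and 529 bp), the second with folds of 12.2, 12.7 and 10.0. By the definition of gained, no control library had a peak in any of the 3. At Smarcc2 the gained regions lay at 7.97 kb (chromosome 10, 128466977 to 128467443, 451, 319 and 270 bp) and 20.33 kb (128479269 to 128479859, 496, 477 and 557 bp), with folds of 4.02 to 6.48 and 4.65 to 5.89. The difference at the start of Smarcc2 did not pass (limma adjusted p = 0.95), where peaks covered 1772, 1768 and 1717 bp in the knockout, against 1768, 1742 and 1734 bp in the control.

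**Figure D3:**
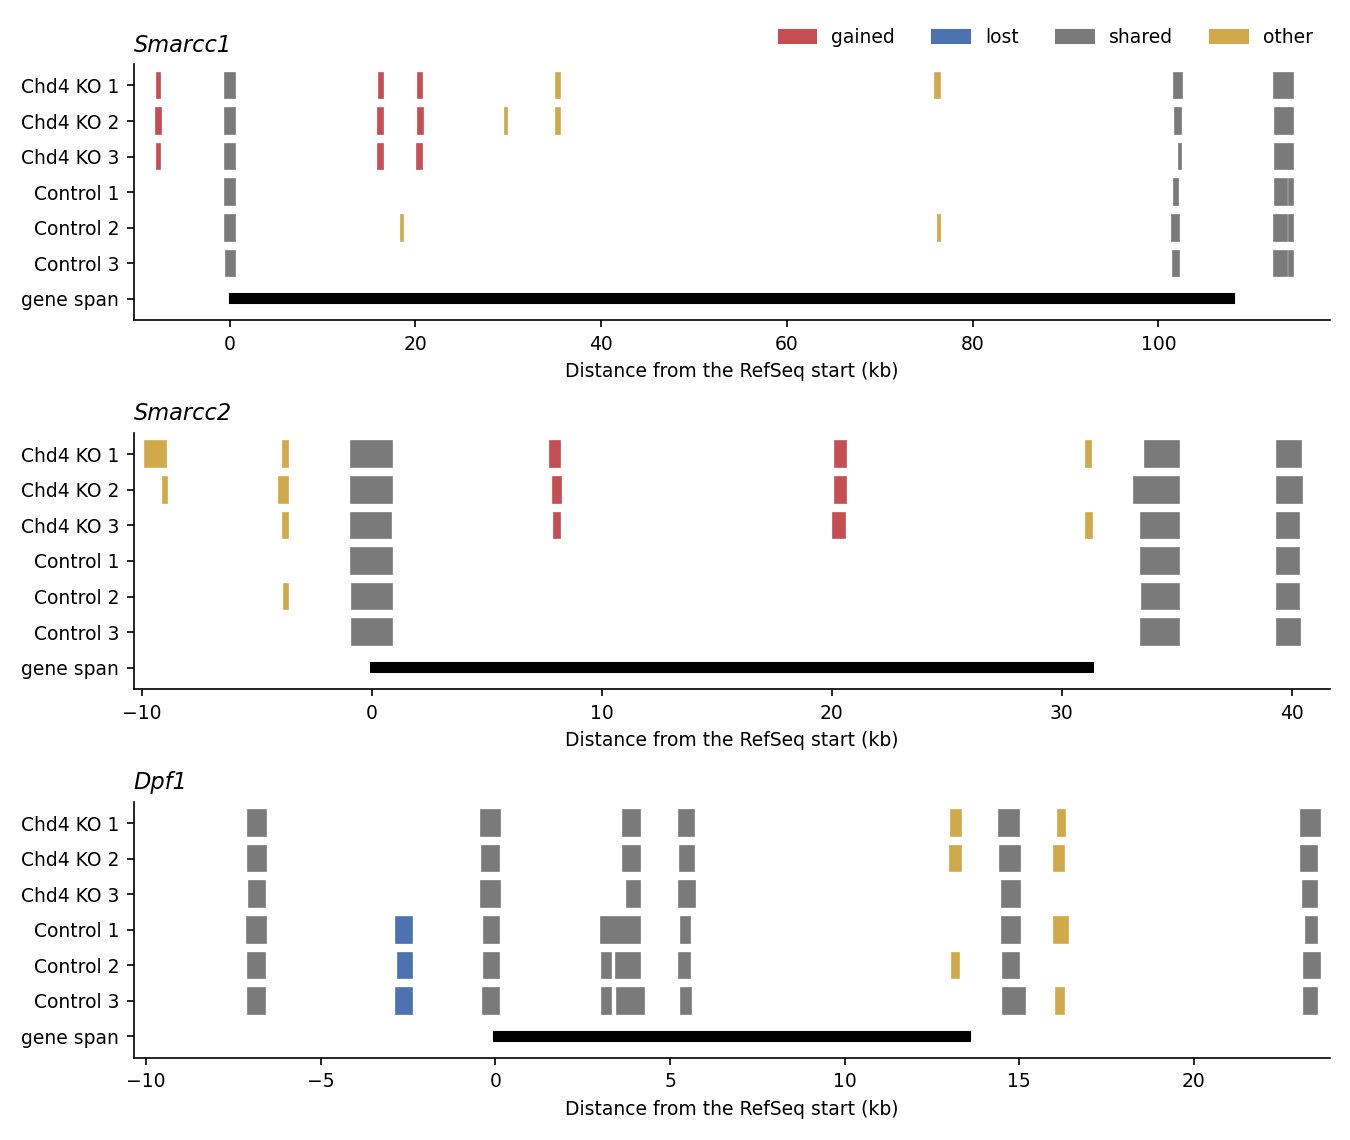
Peaks of each library along the territories of Smarcc1, Smarcc2 and Dpf1, against the distance from the RefSeq start in kb, knockout libraries above control libraries. Gained regions are seen within Smarcc1 and Smarcc2, and a lost region at -2.61 kb from the start of Dpf1.

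Smarcb1 had 4 regions in all, with none gained or lost. Smarcd1 had 1 gained region of 9, which lay at -10.12 kb from the start, over the neighboring gene Asic1, and Smarcd3 had 1 of 9, at 3.27 kb from the start (chromosome 5, 24598586 to 24598889, 302, 226 and 246 bp in the knockout). Smarcd1 had the highest share of shared regions, 7 of 9, of which 4 lay in the flanks. Arid1a had 1 gained region (chromosome 4, 133675672 to 133676056), beyond the end of the gene, and 1 lost region over the neighboring gene Pigv (133671181 to 133671665, 474, 419 and 434 bp in the control).

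Arid1b had 4 gained and 2 lost regions of 85, all within the gene. One gained region had the highest folds of the 16, at 19.4, 17.8 and 14.0 in knockout libraries 1 to 3 (chromosome 17, 5093307 to 5093955, 98.56 kb from the start). Its peaks covered 578, 594 and 627 bp and ranked at percentiles 92.9, 89.4 and 82.0 of their lists by the authors' −log10 q. The other gained regions of Arid1b, at 31.61, 34.20 and 54.26 kb, had folds of 4.14 to 9.73. The lost regions, at 156.90 kb (5151707 to 5152234) and 242.78 kb (5237640 to 5238065), had control folds of 3.14 to 5.29 and 2.99 to 5.61.

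Dpf1 had 1 lost region of 9 and no gained one. The lost region (chromosome 7, 29301169 to 29301618), centered at -2.61 kb from the start, was covered over 450, 413 and 447 bp in the control, at folds of 3.01, 2.92 and 3.01. These control peaks ranked at percentiles 12.6 to 13.9 of their lists.

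At the 95 shared regions, covered bases were compared without scaling by limma over all 75312 shared regions. Of the 95, 5 were wider in the knockout and 1 narrower at adjusted p under 0.05, where 4.37% of all shared regions were wider and 2.62% narrower. The median log2 fold change of the 95 was -0.0034, that of all shared regions 0.0050, and 46 of the 95 were above 0. Centred on the median of shared regions in each library, all shared regions split into 2750 wider and 2707 narrower, against 3293 and 1975 without centring, and the 95 into 3 and 2. Of the 11 start regions 0 passed limma, and 0 lay at an unadjusted p under 0.05, and their values ran from -0.10 to 0.20.

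**Figure D4:**
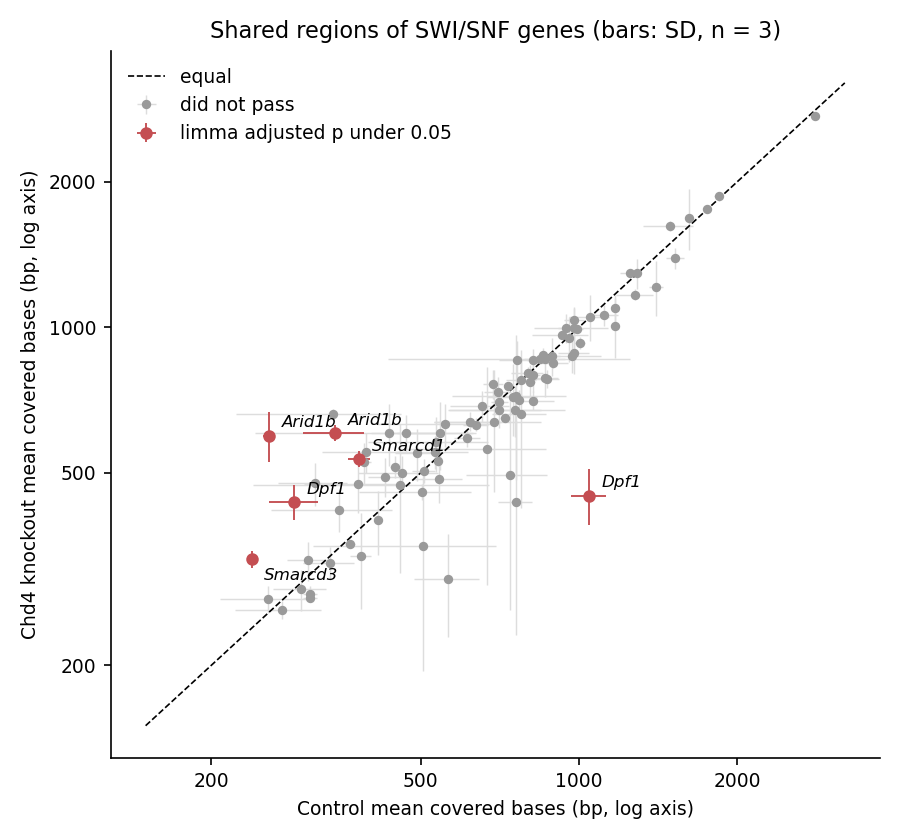
Mean covered bases of the 95 shared regions in the knockout against the control (log axes, bars are SD, n = 3). The 6 regions that passed are labelled by gene, and the Dpf1 region below the line is the only narrower one.

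The largest difference was within Dpf1. At 3.64 kb from its start (chromosome 7, 29307036 to 29308260), peaks covered 486, 480 and 380 bp in the knockout, against 1117, 961 and 1060 bp in the control (-1.23 ± 0.12, limma adjusted p = 0.0080). In the map of peaks, the knockout libraries had a peak over the part of this region farther from the start, and the control libraries had peaks over both parts. The authors' folds there were 8.97, 10.4 and 7.77 in the knockout lists and 12.7, 12.5 and 12.3 in the control lists. A neighboring region at 5.48 kb (29309249 to 29309718) was wider in the knockout, at 436, 398 and 470 bp against 253, 299 and 311 bp (0.60 ± 0.12, limma adjusted p = 0.045).

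The territory of Arid1b as a whole passed as less covered in the knockout only with scaling, and without it the groups overlapped (-0.02). In the comparison of shared regions, which used no scaling, 2 regions of Arid1b were wider in the knockout. One lay beyond the end of the gene (chromosome 17, 5352682 to 5353332) and had 638, 515 and 637 bp in the knockout, against 256, 252 and 264 bp in the control (1.21 ± 0.12, limma adjusted p = 0.0082). The other lay at 43.58 kb (5038309 to 5038989), with 615, 579 and 619 bp in the knockout, against 313, 323 and 396 bp in the control (0.82 ± 0.12, limma adjusted p = 0.020). Its folds were 21.2, 22.0 and 19.6 in the knockout lists and 5.91, 6.80 and 7.41 in the control lists.

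The remaining called regions belong to the genes of the alternative core subunit. At Smarcd3, a region at -1.16 kb from the listed start (chromosome 5, 24602984 to 24603330) had 317, 342 and 335 bp in the knockout, against 240, 235 and 241 bp in the control (0.47 ± 0.07, limma adjusted p = 0.018). At Smarcd1, a region 9.30 kb into the gene (chromosome 15, 99711311 to 99711864) had 534, 515 and 554 bp in the knockout, against 368, 403 and 375 bp in the control (0.48 ± 0.09, limma adjusted p = 0.037). The groups did not overlap in any of these 6 regions, which were picked by the test on these same values. Groups were also apart at shared regions that did not pass, such as one 1.86 kb into Smarca2 (limma adjusted p = 0.17). The share of all shared regions with groups apart was not counted. A region 74.7 kb into Smarca2 (chromosome 19, 26679531 to 26680185), with 240, 381 and 283 bp in the knockout, against 533, 655 and 506 bp in the control, did not pass (-0.92 ± 0.20, limma adjusted p = 0.054) but did so after centring (limma adjusted p = 0.035).

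The 6 calls differed in how they held when a library was left out. The Dpf1 region at 3.64 kb and the Arid1b region beyond the gene passed with each library left out in turn (limma adjusted p = 0.022 to 0.036 and 0.025 to 0.039). The Smarcd1 region and the Dpf1 region at 5.48 kb lost the call with any 1 library left out (0.051 to 0.11 and 0.078 to 0.12). The Arid1b region at 43.58 kb lost it without knockout library 1, 2 or 3 (0.075, 0.060 and 0.064). The Smarcd3 region lost it without knockout library 1, 2 or 3 (0.054, 0.057 and 0.051). It also lost it without control library 2 (0.050, not under 0.05 before rounding) or 3 (0.056).

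Dpf1 also stood apart among the starts, by the authors' fold enrichment. Its start region had folds of 18.4, 18.7 and 19.3 in the knockout lists and 7.27, 7.50 and 7.72 in the control lists. The summits lay 142, 144 and 143 bases before the start in the knockout and 88 bases before it in every control library. In the printed window the knockout summits thus lie between the matches to CCAAT, and the control summits lie just past the one nearer to the start. Peaks covered 529, 484 and 530 bp of this region in the knockout and 442, 442 and 459 bp in the control, the groups being apart, and the difference did not pass (0.20, limma adjusted p = 0.24). At the starts of the other genes the folds of the groups lay closer, though some groups were apart there too. The knockout folds were all higher at Smarca2 and Arid1b, and all lower at Smarcd1 and Smarcc1. Smarcc1 had 22.5, 20.4 and 20.3 in the knockout and 22.6, 23.1 and 23.9 in the control, with the summit 39 bases before the start in all 6 libraries. Smarcc2 had its summit 38 bases before the start in all 6.

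**Figure D5:**
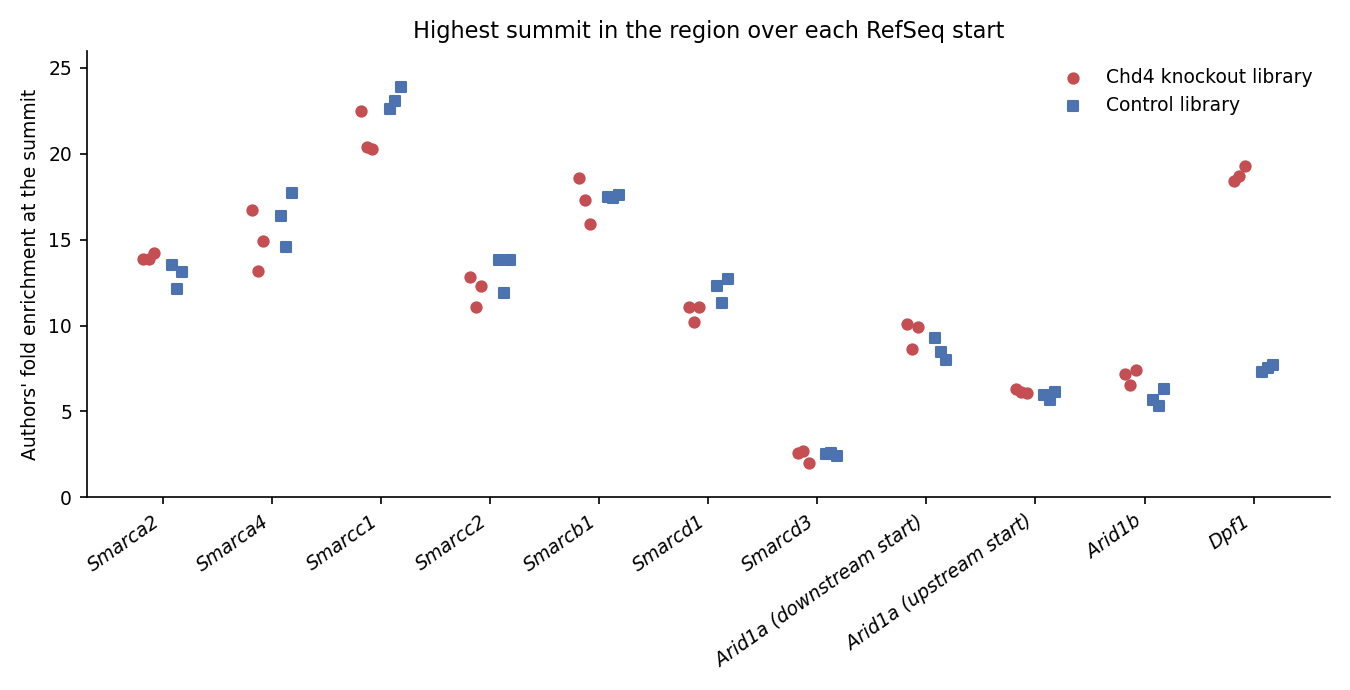
The authors' fold enrichment at the highest summit of the region over each RefSeq start, by library, knockout left of control. At Dpf1 the knockout values lie between 18.4 and 19.3 and the control values between 7.27 and 7.72.

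Smarcd3 had the lowest folds at its listed start, 2.56, 2.71 and 1.97 in the knockout and 2.53, 2.59 and 2.41 in the control. The far end of its RefSeq span, which is the 5′ end on the minus strand, carried a stronger shared region (chromosome 5, 24623932 to 24624926), with folds of 22.5, 21.2 and 16.9 in the knockout and 14.8, 20.4 and 19.7 in the control. Arid1b had the widest start region, with 2765, 2721 and 2733 bp in the knockout, against 2841, 2811 and 2786 bp in the control, all knockout values below all control values (-0.04, limma adjusted p = 0.32).

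A list of 20 other SWI/SNF subunit genes covered the remaining core and alternative subunits and those of the PBAF and non-canonical complexes. By limma 0 genes in it were higher and 1 was lower at adjusted p under 0.05. Of all genes tested 7.57% were higher and 14.6% lower. At an unadjusted p under 0.05, 0 genes of the list were higher and 5 lower. The median log2 fold change of the list was -0.09, as was that of all genes tested. The lower gene was Bicral, a subunit gene of the non-canonical complex, with 7414, 6892 and 7262 bp in the knockout, against 9032, 8422 and 8204 bp in the control (-0.24 ± 0.06, limma adjusted p = 0.031). All knockout libraries lay below all control libraries, as they did at 32.7% of all genes tested. Without scaling Bicral had -0.08 and did not pass (limma adjusted p = 0.45), and it lost the call without knockout library 1 or 2 or control library 1, 2 or 3 (limma adjusted p = 0.054 to 0.087).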

How the data were processed

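Peaks of ATAC-seq were taken from 1 deposited list per library on mm10, the build given in the submitters' processing notes. Per the peak names in the deposited lists, the authors called peaks with MACS2 on shifted cutting sites, each library alone, with an aligner, read filters and settings not given in the sources used here. Deposited values are a score, the authors' fold enrichment at each summit (a ratio to local background), and −log10 p and −log10 q. The lists give no reads, so neither depth nor counting intervals could be given, and no count test was used. A weaker or shallower library can yield fewer or narrower peaks, so covered length depends on the number of peaks called. Here the median peak width was 476 to 485 bp in the knockout lists and 490 to 500 bp in the control lists, which held fewer peaks.

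Bases under peaks in each RefSeq gene span plus 10 kb on each side were brought to the same total in each library, and 300 bp were added before log2. Genes whose mean reached 300 bp entered a limma fit (version 3.58.1, R 4.3.3; intensity trend) of 3 knockout against 3 control libraries, without covariates, and p-values were adjusted by Benjamini and Hochberg over all genes tested. Regions called in all 6 libraries were tested likewise on log2 covered bases without scaling. The fits were also run on simulated data, drawn independently for each gene or region and each library. Those data held no shift in peak number between libraries, so they cannot show how the calls depend on scaling. Tables were made with Python 3.11.15. An exact permutation test of 3 against 3 libraries cannot go below p = 0.10, so none was run.

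All 10 genes were named with their values, and of 20 other subunit genes those that passed the test. The rule for the 10 genes uses no measured value, but genes, lists and tests were chosen with earlier results of these data known. Alternatives changed the flank, scaling, added length, filter, peak threshold, overlap rule and replicate block, or left out each library. No 2 lists shared more than 0.565% of the smaller list's peaks with identical ends.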

Additional observations from a re-analysis of the deposited data

How the results depend on the processing

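Of 230 values of single genes and regions under the alternatives, 153 kept their direction and their side of the threshold, 65 kept the direction and lost the call, 1 gained it and 11 changed sign. The changes of sign were Arid1a without scaling (0.0794), without knockout library 3 (0.0423) and without peaks over other genes' spans (0.0665, chosen after seeing the data); Smarcd1 with 50 kb flanks (0.0133), without scaling (0.0732) and with the 50000 strongest peaks (0.0558); Smarcd3 without control library 2 (-0.0201); and, with the 50000 strongest peaks, Arid1b (0.16), Smarca2 (-0.0842), Smarcb1 (0.0931) and Smarcc1 (-0.35). With 1 library left out, Arid1a ranged over -0.2016 to 0.0423 and Smarcd3 over -0.0201 to 0.0694. Smarca4 passed with peaks at −log10 q of at least 5 (limma adjusted p = 0.047). Of the 10 genes, 2 higher and 2 lower became 2 and 0 without scaling, 1 and 2 with 1 kb flanks, 0 and 1 with 50 kb flanks, 2 and 1 with 100 bp added or with every gene tested, and 0 and 0 with the 50000 strongest peaks, by limma, with 1 higher and 0 lower there at an unadjusted p under 0.05. Leaving out 1 library gave 0 to 2 higher and 0 to 1 lower. Of the other 20 subunit genes, 1 lower became 0 without scaling, 2 with 1 kb flanks and 3 with the 50000 strongest peaks, 1 was higher with 50 kb flanks, and 0 to 1 were lower with 1 library left out. Over all genes, 1340 higher and 2577 lower became 2586 and 510 without scaling, 1543 were lower with the 50000 strongest peaks and 1599 without peaks over other genes' spans, and 676 to 1159 were higher and 840 to 2229 lower with 1 library left out. Of the shared regions, 3293 wider and 1975 narrower became 895 to 3351 and 617 to 1252 with 1 library left out, and the 5 and 1 of the SWI/SNF genes 1 to 4 and 1 to 3. Centring gave 3 and 2 there, the second narrower region being one in Smarca2. The 16 gained, 4 lost and 95 shared regions became 8 lost where a peak had to cover at least 50% of a region, 2 lost with 1 kb flanks and 43 shared with the 50000 strongest peaks, and 17 to 22 gained, 4 to 7 lost and 96 to 100 shared with 1 library left out. The causes were not tested.

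With the replicate number as a block (replicate block), 1 of the 10 genes was higher and 1 lower and 2 of the other 20 were lower. Smarcc1 (limma adjusted p = 0.061) and Arid1b (0.063) lost the call, while Smarcc2, Dpf1 (0.045 each) and Bicral (0.049) passed. All 6 region calls were lost, the Dpf1 region at 3.64 kb and the Arid1b region beyond the gene at 0.073 each and the other 4 at 0.080 to 0.13. In that fit 0 shared regions passed limma in either direction, 0 and 0 of the SWI/SNF genes, with 9950 wider and 7160 narrower at an unadjusted p under 0.05. Libraries with the same number deviated together with correlations of 0.13, 0.09 and -0.03 over genes, so the numbers are not taken to pair them. Peak lists without reads limit what can be said of weak regions.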
